A study of Mus musculus with 2 samples.

Results

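DOX-only peaks are regions of open chromatin that were called as a peak in doxycycline-treated mammary gland organoids and in no overlapping position of the ethanol-treated ones. They were chosen as peaks of the DOX list on chromosomes 1 to 19 that shared not a single base pair with any EtOH peak and held at least 100 counts in the DOX library. This gave 38755 DOX-only peaks of 223161 peaks in the whole DOX list, or 18.8% of the 206072 DOX peaks on these chromosomes that reached 100 counts. The overlap and the counts that chose them are therefore described and were not tested. The same rule turned around gave 42586 EtOH-only peaks, 20.3% of 209971 EtOH peaks.

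Single-cell ATAC-seq (scATAC-seq) counts cuts of the transposase Tn5 in the accessible DNA of single nuclei. The organoids came from shTRPS1.34 ki/+; CAG-rtTA3 tg/+ mice on C57BL/6J, in which an shRNA against Trps1 sits behind a TRE promoter in the Col1a1 locus and the transactivator rtTA3 is driven by the broadly active CAG promoter. Organoids received doxycycline at 0.1 µg/ml (DOX) or its solvent ethanol (EtOH, 0 µg/ml) for 7 days, so that both groups carried the shRNA and the transactivator and differed in the drug and in shRNA induction, which cannot be told apart. This genotype is that of the labels and the methods, while a legend of the study names wild-type BL6 mice, in which the drug alone would differ. The cells of several mice were pooled into 1 library a group, and induction need not reach every cell. There is thus no replicate and no test, and all intervals are 95% intervals that cover counting error only.

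Open chromatin marks promoters and enhancers, where transcription factors displace nucleosomes, and a peak caller reports a region once enough cuts of a library fall in it. In the mammary epithelium GATA3 is the main GATA factor of luminal cells, and TRPS1 is an atypical GATA family member that acts as a repressor. The study describes its sites in breast cancer cells as rich in GATA motifs. In sorted luminal cells it found C2H2 zinc finger motifs enriched at them, and proposes that TRPS1 depends there more on these fingers than on its GATA domain. Organoids of primary tissue can also keep macrophages, whose enhancers are opened by PU.1, the ETS factor encoded by Spi1, together with AP-1, C/EBP, IRF and RUNX factors. Knockdown by an shRNA acts on the mRNA and leaves no mark at the Trps1 gene in this assay, so the induction itself was not checked here.

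Sequences of 4 DOX-only peaks show the features that the results turn on. Each is the central 300 bp of the peak, read 5′ to 3′ from the forward strand of GRCm38, in lower case with the motif in capitals. Among immune-supplied DOX-only peaks (defined below) with the PU.1 motif, a centre free of annotated exons and under 50% repeat sequence, the peak with the most counts lay 2444 bp from the start of Nfkbia, the gene of the NF-κB inhibitor IκBα, outside any gene at chr12:55488466-55489366. It held 3455 counts, of which 87.5% came from immune-like nuclei. Its PU.1 motif, on the reverse strand, starts at base 57 of the printed stretch at chr12:55488766-55489065.
Nfkbia peak: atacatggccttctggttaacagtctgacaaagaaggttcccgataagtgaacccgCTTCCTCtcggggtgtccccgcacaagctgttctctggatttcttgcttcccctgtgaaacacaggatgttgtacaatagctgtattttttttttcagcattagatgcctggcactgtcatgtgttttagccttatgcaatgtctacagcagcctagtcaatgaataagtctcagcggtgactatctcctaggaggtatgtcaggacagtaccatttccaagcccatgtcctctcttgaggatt

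The next 2 stretches come from peaks of at least 300 counts that the large DOX cluster 1 (defined below) supplied almost alone and that hold the GATA motif. The first lies in an intron of Sema3d, a secreted semaphorin, at chr5:12400946-12401826, where 96.0% of 301 counts came from cluster 1 and 0.664% from immune-like nuclei. The printed stretch is chr5:12401236-12401535 and its GATA motif, on the reverse strand, starts at base 95.
Sema3d peak: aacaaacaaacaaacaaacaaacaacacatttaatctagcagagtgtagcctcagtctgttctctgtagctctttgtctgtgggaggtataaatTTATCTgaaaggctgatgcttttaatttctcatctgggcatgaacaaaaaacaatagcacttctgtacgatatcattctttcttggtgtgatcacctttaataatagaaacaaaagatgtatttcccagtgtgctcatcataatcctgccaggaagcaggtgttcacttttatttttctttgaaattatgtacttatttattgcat
The second lies in an intron at chr5:14738155-14739040, 57292 bp from the nearest protein-coding start, that of Pclo, and 95.8% of its 711 counts came from cluster 1. The printed stretch is chr5:14738448-14738747 and its GATA motif starts at base 130, close to the centre of the peak.
Pclo peak: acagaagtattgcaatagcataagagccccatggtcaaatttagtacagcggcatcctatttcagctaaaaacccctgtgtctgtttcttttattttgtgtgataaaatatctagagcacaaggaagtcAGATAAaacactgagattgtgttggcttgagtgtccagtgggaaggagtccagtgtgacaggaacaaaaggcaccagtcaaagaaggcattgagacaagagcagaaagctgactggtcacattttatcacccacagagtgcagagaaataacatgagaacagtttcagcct

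The last stretch, shown because the densest run of DOX-only peaks lies among the immunoglobulin heavy chain variable segments, comes from a peak 679 bp from Ighv1-65 at chr12:115533164-115534076. It held 310 counts in 135 nuclei, and 98.4% came from immune-like nuclei. The printed stretch is chr12:115533470-115533769 and its PU.1 motif starts at base 266, away from the centre. Of the 62 DOX-only peaks of that run 17.7% held this motif, close to the 17.9% of all DOX peaks. Of these 62 peaks 59 were immune-supplied, and the share over all immune-supplied DOX-only peaks was higher, at 33.6%.
Ighv1-65 peak: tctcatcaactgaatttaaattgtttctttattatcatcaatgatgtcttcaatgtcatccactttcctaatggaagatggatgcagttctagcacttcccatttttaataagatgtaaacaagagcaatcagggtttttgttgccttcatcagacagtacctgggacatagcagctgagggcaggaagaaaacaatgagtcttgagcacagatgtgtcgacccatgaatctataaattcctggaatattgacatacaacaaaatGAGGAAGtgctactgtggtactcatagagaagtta

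The DOX library held 3071 nuclei with a median of 75296 counts and the EtOH library 3104 nuclei with a median of 66789.5 counts. The libraries shared 23 cell barcodes. DOX-only peaks carried 11247903 of 224762118 DOX counts, or 5.0%, and covered 32.5 Mb. They were smaller than the other DOX peaks. Their counts had a median of 207, with the middle 50% between 145 and 327, against a median of 541 for the 167317 DOX peaks with an EtOH counterpart. A DOX-only peak was open in a median of 98 nuclei, and the nucleus with the most counts gave a median of 6 counts, so that no single nucleus supplied a typical peak. EtOH-only peaks were of a like size, with a median of 177 counts in 86 nuclei.

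Both thresholds of the rule cut through a continuous range. Another 6690 DOX peaks without an EtOH counterpart stayed under 100 counts. The 998 peaks just inside, with under 105 counts, had a median of 102 counts and a median share of 47.6% from immune-like nuclei (defined below), and the 914 peaks just outside, with 95 counts or more, had 97 counts and 49.0%. At the other threshold, 133 DOX-only peaks lay within 10 bp of an EtOH peak and 110 DOX peaks overlapped one by 10 bp or less. Their median immune shares were 80.5% and 82.0%.

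Most DOX-only peaks lay near an EtOH peak. The gap to the nearest EtOH peak had a median of 1841 bp, and 90.6% lay within 10 kb. For 2558 peaks (6.60%) the gap was at most 200 bp, and 14 abutted an EtOH peak with no base between them. Far fewer lay alone, with 3661 beyond 10 kb and 401 beyond 50 kb of any EtOH peak. EtOH-only peaks had a median gap of 2409 bp to the nearest DOX peak.

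By position in GENCODE M21, 4403 DOX-only peaks (11.4%) came within 1 kb of a transcription start site (TSS), 18789 (48.5%) were intronic, 1638 (4.23%) had an exon at their midpoint and 13925 (35.9%) lay between genes. DOX peaks with a counterpart were promoter peaks more often, with 19.2% within 1 kb of a TSS, and EtOH-only peaks were so in 9.64%. The base composition followed the same order. The central 300 bp of DOX-only peaks had a median GC content of 46.0%, with the middle 50% between 42% and 50%, against 48.3% in peaks with a counterpart and 45.7% in EtOH-only peaks. Only 6.49% of DOX-only peaks had a GC content of 55% or more, against 18.6% of peaks with a counterpart. The ratio of observed to expected CpG had a median of 0.17 in DOX-only peaks and 0.21 in peaks with a counterpart. Repeat sequence, read from the soft-masked bases of the reference, covered at least 50% of the centre in 10.8% of DOX-only peaks, 4.76% of peaks with a counterpart and 6.89% of EtOH-only peaks.

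The peaks were spread over all chromosomes. The DOX-only share of DOX peaks ran from 17.0% on chromosome 4 to 20.0% on chromosome 16. By the kind of gene whose start was nearest it was 18.4% for protein-coding genes, 18.9% for long intergenic non-coding RNAs and 19.9% for processed pseudogenes. Immunoglobulin variable segments stood far above these, at 63.6% of 77 DOX peaks (interval 51.9% to 74.3%).

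To see which nuclei supplied the counts, the nuclei of both libraries were clustered on regions with a peak in each library, so that no DOX-only peak entered the clustering. Of 8 clusters, numbered by their DOX nuclei, clusters 2 and 3 were immune-like (myeloid). All 8 myeloid markers measured were more accessible in each of them than in the other nuclei, among them Tyrobp, a signalling adaptor of myeloid cells, with a log2 fold of 2.50 in cluster 2 and 2.85 in cluster 3, and Ptprc, which encodes CD45, with 1.95 and 2.40. These 2 clusters held 1284 of 3071 DOX nuclei (41.8%, interval 40.1% to 43.6%) and 282 of 3104 EtOH nuclei (9.09%, interval 8.10% to 10.2%). Cluster 1, with 1364 DOX and 18 EtOH nuclei, stayed unnamed, since its leading list, basal markers, reached a median log2 fold of only 0.39. Clusters 4 and 6 were hormone-sensing luminal-like, and clusters 5, 7 and 8 stayed unnamed.

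Immune-like nuclei supplied 70.2% of the counts in DOX-only peaks, although they held 40.7% of all DOX counts and supplied 39.2% of the counts in DOX peaks with a counterpart. Cluster 2 gave 36.9%, cluster 3 gave 33.3% and cluster 1 gave 22.9%. In EtOH-only peaks the immune-like nuclei of that library supplied 2.30%, against 6.81% of all EtOH counts. The difference in numbers of immune-like nuclei between the libraries moves with this result, and its part in the calling of each peak was not tested.

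**Figure D1:**
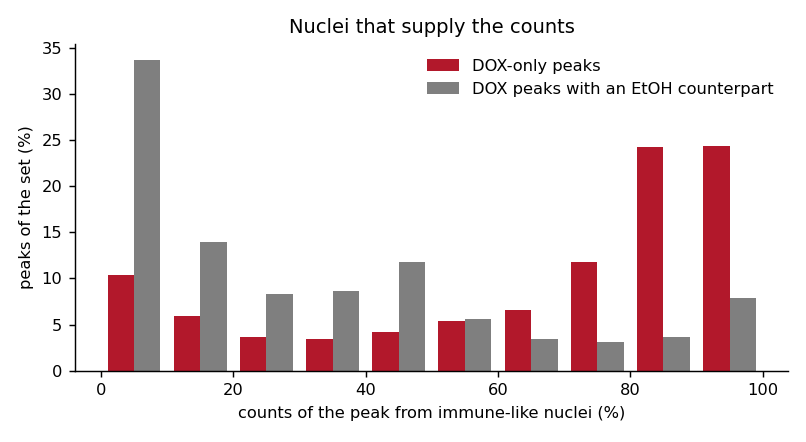
Percentage of the counts of a peak that came from immune-like nuclei (x axis, bins of 10 percentage points) against the percentage of peaks of each set (y axis), for 38755 DOX-only peaks (red) and 167317 DOX peaks with an EtOH counterpart (grey). In the 2 highest bins lie 24.3% and 24.3% of DOX-only peaks, and in the lowest bin lie 33.7% of peaks with a counterpart and 10.4% of DOX-only peaks.

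Peaks were sorted by this share. With at least 80% of the counts from immune-like nuclei, 18823 DOX-only peaks (48.6%) were immune-supplied, and with at most 20%, 6361 (16.4%) were supplied from outside. The other 13571 (35.0%) were mixed. Among DOX peaks with a counterpart the same classes held 19343 (11.6%), 79974 (47.8%) and 68000 (40.6%). As the plot of immune shares shows, the DOX-only peaks piled up at the immune end with a smaller group at the other.

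Within a nucleus the same order appeared. Immune-like nuclei had a median of 8.64% of their counts in DOX-only peaks, with 5% of nuclei below 6.91%, and all other nuclei had a median of 2.38%, with 5% above 3.63%. Depth did not move with this, at a median of 75520.5 counts for immune-like and 74480 for other nuclei. Among the remaining clusters, cluster 5 had the highest share at 3.31% besides the shallow cluster 8 at 3.17%, and cluster 7, which held 57 DOX and 1624 EtOH nuclei, had the lowest at 1.70%.

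**Figure D2:**
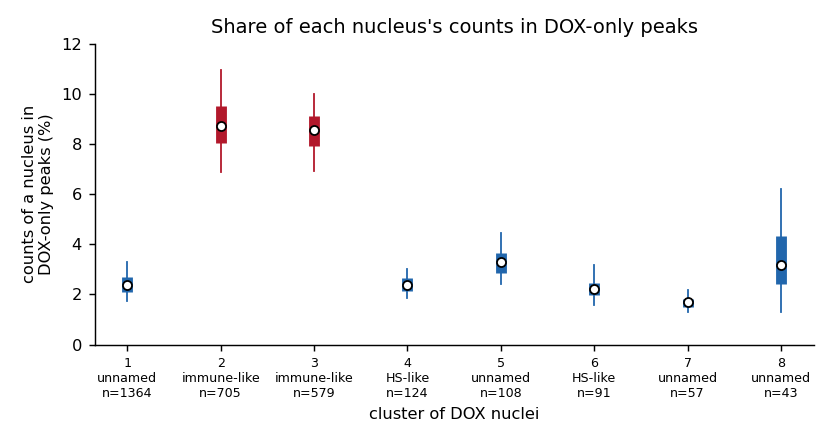
Percentage of the counts of a DOX nucleus that fell in DOX-only peaks (y axis) for the 8 clusters (x axis, with the number of DOX nuclei). Points are medians, thick bars the middle 50% and thin lines the 5th to 95th percentile, HS-like means hormone-sensing luminal-like, and immune-like clusters (red, medians 8.74% and 8.56%) lie above all others (blue).

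Small peaks were DOX-only far more often than large ones, and at every size the immune-supplied peaks were DOX-only most often. Of immune-supplied DOX peaks from 100 to under 200 counts, 92.9% (interval 92.2% to 93.5%) had no EtOH counterpart, against 18.1% (17.6% to 18.7%) of those supplied from outside. From 500 to under 1000 counts these shares were 27.9% and 1.94%, and from 2000 counts on they were 2.32% and 0.0805%. The mixed peaks lay in between at each size.

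**Figure D3:**
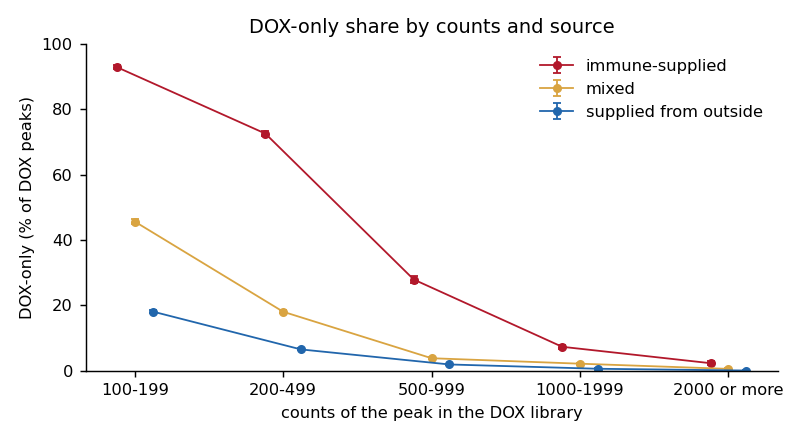
DOX-only share of DOX peaks (y axis, %) by the counts of the peak in the DOX library (x axis, 5 classes) for peaks that were immune-supplied (red), mixed (yellow) or supplied from outside (blue). Bars are exact 95% binomial intervals, and every class falls from left to right, from 92.9% to 2.32% in the immune-supplied peaks.

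The same nuclei can be set beside the EtOH library by arithmetic. The counts of each cluster in a DOX peak were multiplied by the ratio of the total counts of that cluster in EtOH to those in DOX. This ratio was 0.142 and 0.175 for the immune-like clusters and 0.00772 for cluster 1. It was 4.10, 1.36, 5.19, 30.7 and 0.302 for clusters 4 to 8. Cluster 7 held 57 DOX nuclei and gave 1.13% of the counts in DOX-only peaks supplied from outside. A few counts from it therefore weigh heavily in the scaled values of these peaks. Scaled in this way, immune-supplied DOX-only peaks had a median of 75 counts, and 64.6% of them fell below 100, against 13.0% of immune-supplied peaks with a counterpart, whose median was 228. Mixed DOX-only peaks had a scaled median of 112, with 43.2% below 100, and those supplied from outside had 154, with 27.8% below 100. Of all DOX peaks with a scaled count under 50, 83.1% were DOX-only, and of those at 500 or more, 1.13% were. The smallest 5% of EtOH peaks held fewer than 94 counts. This shows how many counts equal accessibility in each cluster would give and was not a test of it.

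Regions with a peak in both libraries allow relative levels inside immune-like nuclei to be compared. In 19284 such regions that were immune-supplied, the median log2 ratio of DOX over EtOH was 1.84 over all nuclei. Within immune-like nuclei alone, scaled to their own counts over the shared regions, it was 0.01, with the middle 50% between -0.17 and 0.24. This scaling by itself centres the typical region, and over all 174772 shared regions the median in these nuclei was 0.02. A change common to all regions would therefore not show, and DOX-only peaks themselves have no EtOH count. The 3544 immune-supplied shared regions that lay nearest to an immune-supplied DOX-only peak had medians of 1.90 over all nuclei and 0.0042 within immune-like nuclei.

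Over all DOX-only peaks with a shared region within 10 kb (33762 peaks), that nearest region had a median log2 ratio of 0.02, and a rise of 2-fold or more in DOX was found for 19.1% and a fall of that size for 11%. Across all 174772 shared regions with at least 100 counts the median was -0.13, with 13.0% risen and 13.4% fallen by that much. Beside immune-supplied DOX-only peaks the median was 0.13 and 26.1% were at least 2-fold higher. Beside those supplied from outside it was -0.27 and 8.43% were. In nuclei outside the immune-like clusters these medians were -0.07 and 0.01, and that of all shared regions was -0.06. In these nuclei the neighbours of DOX-only peaks were thus at the level of shared regions in general.

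Motifs were searched as plain letters in the central 300 bp, on both strands, and a match is a description of the letters and not evidence of binding. The GATA string AGATAA was held by 14.2% of all 206072 DOX peaks with at least 100 counts. For PU.1 the string GAGGAAG was held by 17.9%, and for AP-1 the string TGANTCA was held by 19.8%. The NFI string TTGGCA was found in 22.9%, the TEAD string GGAATG in 19.3% and the RUNX string TGTGGTT in 11.5%. The C/EBP string TTGCNNAA was found in 16.3%, the SOX string ACAATGG in 5.31% and the FOX string TGTTTAC in 4.92%. Among the others, IRF was searched as GAAAGNGAA (3.17%), ETS as CCGGAAG (2.88%), KLF/SP as GGGCGGG (6.92%) and STAT as TTCCNGGAA (1.39%). An E-box was searched as CAGCTG (18.5%), NF-kB as GGGACTTTC (0.48%) and MEF2 as CTATTTATA (0.38%). CTCF (10.1%) and SRF (1.59%) were searched with longer degenerate motifs. The ETS and PU.1 strings share the letters GGAAG.

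DOX-only peaks supplied from outside carried the GATA motif in 33.1% (2107 of 6361), against 16.1% of DOX peaks with a counterpart that were supplied from outside, a difference of 17.0 percentage points. Immune-supplied DOX-only peaks had it in 14.1% and mixed ones in 16%. EtOH-only peaks supplied from outside had it in 14.2%, close to the 13.0% of their own counterpart peaks. These EtOH-only peaks drew 40.3%, 28.9% and 23.1% of their counts from clusters 7, 6 and 4. DOX-only peaks supplied from outside drew 73.4% from cluster 1, so unlike nuclei stand side by side here. In DOX peaks with at least 50% of their counts from cluster 1, 30.0% of DOX-only and 14.9% of counterpart peaks held the motif. The excess in DOX-only peaks supplied from outside was present in every band of base composition, from 42.9% against 27.2% below 40% GC to 11.7% against 5.73% at 55% GC or more. It was present in each of the 3 count bands compared, with 30.9% against 17.5% from 100 to under 200 counts, 36.5% against 17.0% from there to under 500, and 37.4% against 15.6% from there to under 1000. In peaks with at least 50% of their centre masked as repeat it was 27.7% against 15.2%.

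The position of the motif within the peak was read in the same peaks with the same strings, so it is no separate support for the shares above. In DOX-only peaks supplied from outside, the GATA motif began in the 25-bp bin just left of the peak centre in 3.99% and in the outermost bin on that side in 1.87%. In counterpart peaks supplied from outside the same bins held 1.44% and 1.64%, and the profile was flat. In immune-supplied DOX-only peaks the GATA motif was rarer at the centre (1.15%) than at the edge (1.55%). The PU.1 motif behaved the other way round, rising from 1.03% at the edge to 4.61% at the centre of immune-supplied DOX-only peaks and from 0.98% to 5.16% in their counterpart peaks, and staying near 1% throughout in peaks supplied from outside.

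**Figure D4:**
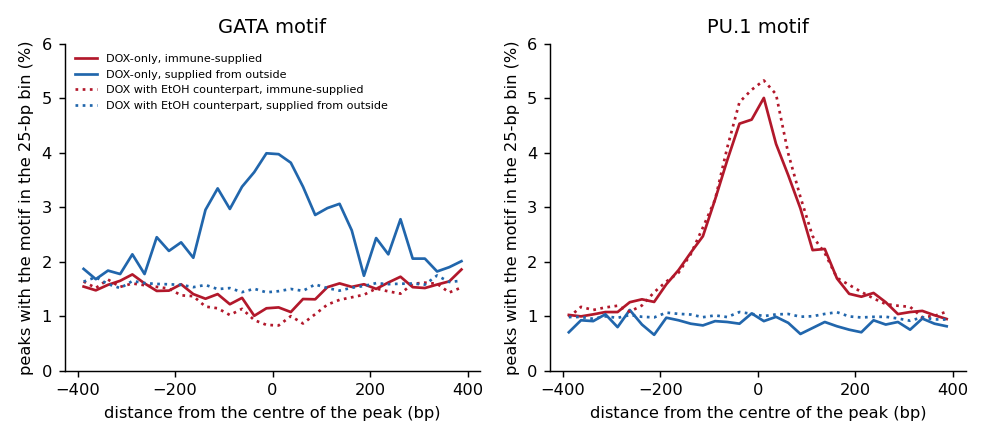
Percentage of peaks in which a GATA (left) or PU.1 (right) motif begins in each 25-bp bin (y axis) by distance from the peak centre (x axis, bp), for DOX-only peaks (solid) and DOX peaks with an EtOH counterpart (dotted) that were immune-supplied (red) or supplied from outside (blue). The GATA line of DOX-only peaks supplied from outside reaches 3.99% at the centre, while the counterpart line stays near 1.44%.

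Immune-supplied DOX-only peaks had the PU.1 motif in 33.6%, near the 36.5% of immune-supplied peaks with a counterpart. The difference of -2.95 percentage points turned to 0.52 when peaks of like counts were compared, with 32.8% against 31.0% from 100 to under 200 counts, 33.5% against 33.1% from there to under 500, and 34.5% against 36.4% from there to under 1000. In all 5 bands of GC content and all 3 bands of repeat share it was lower in the DOX-only peaks. DOX-only peaks supplied from outside had it in 9.94%. AP-1, the dimer of FOS and JUN proteins, was less frequent in DOX-only peaks than in counterpart peaks in both groups, at 14.9% against 21.8% in immune-supplied peaks and 16.6% against 23.4% in those supplied from outside. That order held in all 5 bands of GC content in either group.

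**Figure D5:**
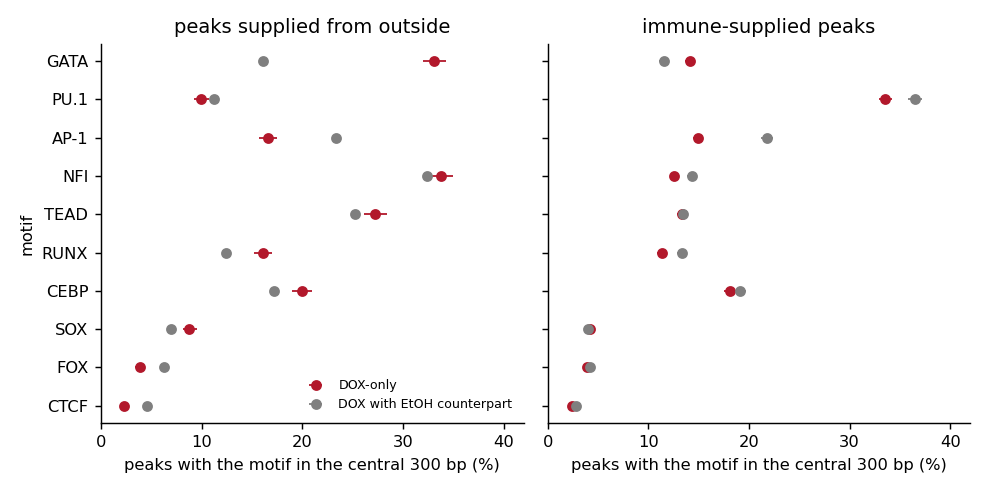
Percentage of peaks with each of 10 motifs in the central 300 bp (x axis) for DOX-only peaks (red) and DOX peaks with an EtOH counterpart (grey), for peaks supplied from outside (left) and immune-supplied peaks (right), with exact 95% binomial intervals. The widest gap is GATA on the left, at 33.1% against 16.1%.

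In DOX-only peaks supplied from outside the other motifs lay above or below their share in counterpart peaks of the same class. NFI stood at 33.8% against 32.4% and TEAD at 27.3% against 25.3%, both well above the immune-supplied DOX-only peaks at 12.6% and 13.3%. NFI was higher below 50% GC but lower from 50% to under 55% (31.5% against 33.5%) and from 55% on (20.8% against 27.4%). TEAD was lower from 50% to under 55% GC (25.2% against 25.4%) and higher in the other GC bands. From 500 to under 1000 counts it was lower too, at 24.8% against 25.2%. RUNX was found in 16.1% against 12.5%, SOX in 8.79% against 7.00% and C/EBP in 19.9% against 17.2%. FOX was lower, at 3.87% against 6.27%, whereas EtOH-only peaks supplied from outside had it in 9.97%. CTCF, which marks insulators, was found in 2.28% against 4.59%. KLF/SP (2.39% against 4.23%) and ETS (1.10% against 1.80%) were lower too. The median GC content was 44.3% in DOX-only peaks supplied from outside and 47.3% in their counterpart peaks. CTCF, KLF/SP and ETS were not compared within GC bands in this class. Among DOX-only peaks CTCF was most frequent in the mixed ones, at 9.78% against 21.5% of mixed counterpart peaks. With at least 50% of the centre masked as repeat, it was found in 30.0% of 1757 mixed DOX-only peaks. That was again lower than in mixed counterpart peaks, at 45.9% of 4039.

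The 2 immune-like clusters shared most of the immune-supplied DOX-only peaks but not all. For 74.4% of the 18823 peaks the levels in clusters 2 and 3 lay within 2-fold of each other. In 3095 peaks cluster 2 was at least 2-fold higher and in 1724 cluster 3 was. With 0.5 counts added to each cluster, 3069 peaks leaned to cluster 2 and held AP-1 in 28.9% and C/EBP in 31.5%, while 1719 leaned to cluster 3 and held them in 7.85% and 10.5%. RUNX went the other way, at 8.18% and 18.4%, and so did PU.1, at 22.3% and 34.5%. Immune-supplied peaks with a counterpart showed the same order, with AP-1 in 40.7% and 8.51%.

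The DOX-only peaks with the most counts were also looked at by themselves. Of the 162 with at least 2000 counts, 103 lay within 1 kb of a TSS, 69 within 200 bp and 135 within 1000 bp of an EtOH peak, and 95 were mixed. Among all 25154 DOX peaks of that size 16278 were mixed, so a mixed source is not particular to the DOX-only ones. The TSS share of the other DOX peaks of that size was not worked out. The highest was a peak over the start of Cryzl1, a quinone reductase-like gene, at chr16:91728575-91729572, with 21819 counts in 2772 of 3071 nuclei (90.3%). It was open alike in immune-like nuclei (91.7%) and in the others (89.2%), and the cluster levels, apart from cluster 8, ran from 86.2 CPM (counts scaled to the total of the cluster) in cluster 4 (interval 78.3 to 94.7) to 105 in cluster 7 (interval 90 to 121). Cluster 8, which holds 43 shallow nuclei, had 483 CPM. The nearest EtOH peak was 1768 bp away, so this region has no deposited EtOH count, and the level there was not analysed here.

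The next 4 by counts lay beside an EtOH peak. The Maco1 promoter peak (chr4:134853711-134854142) was 432 bp wide with 8169 counts and abutted an EtOH peak with a gap of 0 bp. The Zfp36l2 promoter peak (chr17:84188440-84188819), next to a gene for an mRNA decay factor, was 380 bp wide with 5725 counts and a gap of 29 bp. The promoter peaks of Impact on chromosome 18 (5423 counts) and of Ube2d3 (6432 counts), a ubiquitin-conjugating enzyme, were 541 and 901 bp wide, with gaps of 17 and 74 bp. All 4 were mixed, with 49.3% to 55.3% of their counts from immune-like nuclei, and each lay within 74 bp of an EtOH peak. Naa50 (4580 counts), Aurkb (4585 counts) and Egr1 (4419 counts), an immediate early transcription factor, were likewise nearest to mixed peaks, with gaps of 798, 89 and 3971 bp.

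The largest immune-supplied peak covered the start of an annotated transcript of Pxn, which encodes the focal adhesion protein paxillin, at chr5:115516010-115516931. It held 4602 counts, 97.1% from immune-like nuclei, and was open in 78.7% of these and in 3.41% of the others. A peak 2534 bp from Adamtsl4 held 4140 counts at 80.3%. Others were near the starts of Btbd19 (3584 counts, 97.1%) and of Pdlim2, a PDZ and LIM domain protein that limits NF-κB (3581 counts, 88.0%). These 4 lay between 106 and 715 bp from an EtOH peak.

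The largest peaks supplied from outside were smaller, with 2058 to 2464 counts. The highest, 261 bp from the non-coding gene Rncr4 and 57039 bp from Nrf1, the nearest protein-coding gene, drew 18.1% of its counts from immune-like nuclei and 64.0% from cluster 1. A peak 5460 bp from Rhod, a small GTPase, held 2243 counts with 79.5% from cluster 1. Promoter peaks of Cracr2b (2192 counts) and of Cnn3, the actin-binding calponin 3 (2179 counts), drew 74.0% and 79.1% from cluster 1. A peak 41667 bp from Tfpi, an inhibitor of blood coagulation, held 2058 counts with 90.1% from cluster 1. The Rhod and Tfpi peaks held the GATA motif, as 2 of these 5.

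For single clusters, the DOX-only peaks with at least 300 counts and the highest share from the cluster were looked up. Genes named here are those of the nearest protein-coding start. Cluster 1 reached 96.0% in peaks 12776 bp from Clca4b (502 counts) and 17440 bp from Sema3d (301 counts) and 95.8% in a peak 65878 bp from Gnal on chromosome 18 (332 counts), and all 3 lay at least 2031 bp from an EtOH peak. The hormone-sensing luminal-like cluster 4 gave at most 27.8%, 2567 bp from the amino acid transporter gene Slc6a17, then 27.0% at 7034 bp from Tcim and 26.7% at 45213 bp from Nav2, and in each of these cluster 1 gave more. Cluster 5 gave 44.0% in a peak 6145 bp from Egr2, 42% in an intronic peak 234001 bp from the nearest protein-coding start, that of Tns1, and 36.5% in a peak 22987 bp from Ktn1. Cluster 6 gave 19.5% at 29774 bp from Rassf3, 17.9% at 6457 bp from Foxa1 and 16.9% at 35942 bp from Tapt1. Foxa1 is a pioneer factor of hormone-sensing luminal cells, but this peak drew 37.5% from cluster 1 and 36.6% from immune-like nuclei. Cluster 1 also gave more than cluster 6 in the Rassf3 and Tapt1 peaks, at 45.3% and 51.4%. Cluster 7 gave no more than 6.56%, at 3623 bp from Ehf, an epithelial ETS factor, followed by peaks at 4898 bp from Zxdc and 12249 bp from Ntn1. Cluster 1 gave 84.6%, 79.5% and 80.4% of the counts of these peaks.

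Each peak was then given to the protein-coding gene with the nearest TSS. Of 18101 genes with a DOX peak, 11575 (63.9%) had at least 1 DOX-only peak, with a median of 1 and a 95th percentile of 8. The highest number, 63 of 77 DOX peaks, fell to Zfp386, the protein-coding gene nearest to the immunoglobulin variable segments described below. Zeb2, a zinc finger repressor also used in myeloid cells, had 51 of 132. Lpp, a LIM protein of cell adhesions, had 49 of 176, and Adgrl2, an adhesion GPCR, 45 of 180. Myc had 38 of 176, Nav2 37 of 136, Rapgef5 35 of 98, Creb5 34 of 95, and Cited2 and Plxdc2 33 each of 134 and 86. Beside the 18.8% over all genes, the shares of these 10 genes ran from 21.6% for Myc to 81.8% for Zfp386. A ranking by number favours genes with many DOX peaks, and Cited2 (24.6%) and Adgrl2 (25%) were also near the low end.

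Among 3004 genes with at least 20 DOX peaks, where the median DOX-only share was 18.8%, the highest shares after Zfp386 (81.8%) belonged to Rnf180 (55.6%), Hydin (55%), Msr1 (54.5%), Ikzf1 (52.2%), Papola (51.9%), Acoxl (51.6%), Pde3b (50%), Gm33543 (50%) and Mtpn (48.5%). Msr1 encodes the macrophage scavenger receptor and Ikzf1 the Ikaros factor of blood cells, and 11 of 12 and 9 of 12 of their DOX-only peaks were immune-supplied. None of the DOX-only peaks of Hydin, Msr1, Ikzf1 or Pde3b was supplied from outside.

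Of 8 gene lists, the macrophage list lay above the share over all genes, the SRF/YAP and keratin lists lay below it, and the intervals of the other 5 included it. These intervals treat peaks as independent, although single genes supplied many of them, such as Ptprc with 32 of the 87 macrophage peaks. They are no test of a list, and the lists were set with earlier results of these data known. Macrophage identity genes had 87 DOX-only peaks among 279 DOX peaks, or 31.2% (interval 25.8% to 37.0%), against 18.8% over all genes, and 64 of the 87 were immune-supplied. Their EtOH-only share was 8.33%, against 20.3% over all genes. The list includes every myeloid marker that named the immune-like clusters, so the immune-supplied share of its peaks is partly given by that naming. Adgre1, which encodes F4/80, had 10 of 16, all immune-supplied. Ptprc had 32 of 77, Mrc1, the mannose receptor, 10 of 21, and Cd53, a leukocyte tetraspanin, 5 of 8. Tyrobp, Cd68, Ctss and Mpeg1 had none. The 16 inflammatory genes stood at 21.2% (interval 16.5% to 26.6%, which includes the 18.8% over all genes). Among them Il6 had 6 of 18, Irf8 12 of 42, Tlr4 10 of 48, Il1b 5 of 23 and Ptgs2 5 of 26. Of the 57 DOX-only peaks of this list, 3 were supplied from outside.

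Hormone-sensing luminal genes had 45 of 260 (17.3%, interval 12.9% to 22.5%), near the share over all genes, of which 18 were supplied from outside and 13 immune-supplied. Prlr, the prolactin receptor, had 9 of 42 DOX peaks, Tbx3 8 of 48, Esr1 5 of 35 and Wnt4 5 of 26. Pgr, the progesterone receptor, had 4 of 11, and all 4 were supplied from outside. On the EtOH side the same list had 27.7%. Luminal progenitor genes had 27 of 202 (13.4%, interval 9.0% to 18.8%), with 7 of 43 for Kit and 2 of 25 for Elf5, a factor of alveolar differentiation. Basal genes had 46 of 266 (17.3%, interval 12.9% to 22.4%). Of these, 28 belonged to Tcf4, which had 107 DOX peaks, and 6 to Mylk, the myosin light chain kinase, which had 43. Keratin and simple epithelium genes had the lowest share, 14 of 173 (8.09%, interval 4.49% to 13.2%), against 20.1% on the EtOH side.

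SRF/MRTF and YAP targets had 58 DOX-only peaks of 464 (12.5%, interval 9.63% to 15.9%). Of these, 27 belonged to Klf6, which had 118 DOX peaks, and 7 to Vcl, the vinculin gene, which had 30. Ccn2, a YAP target with 29 DOX peaks, had none, and Ccn1 had 1 of 18. Of the Klf6 peaks 21 were immune-supplied. The GATA genes and Trps1 had 51 of 309 (16.5%, interval 12.5% to 21.1%), with 29 of 160 for Trps1, 8 of 34 for Gata6 and 7 of 86 for Gata3. Of the 7 for Gata3, 5 were supplied from outside, and of the 29 for Trps1, 6 were. On the EtOH side the share of this list was 23.8%.

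The densest run of DOX-only peaks lay in the distal immunoglobulin heavy chain locus on chromosome 12. These variable segments are joined to D and J segments in B cells. Between positions 114930896 and 116011522, a window chosen after the values were seen, 62 of 72 DOX peaks (86.1%) were DOX-only, 59 of them immune-supplied. The EtOH list had 8 peaks of at least 100 counts there, of which 0 were EtOH-only. EtOH peaks under that minimum are not among the 8. Among 1966 windows of 1 Mb with at least 20 DOX peaks the median DOX-only share was 18.3% and the 95th percentile 30.5%, and the window from 115000001 had 87.3%. The 62 peaks were small, with a median of 200.5 counts and at most 449.

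This signal was spread over many nuclei. Of 1284 immune-like DOX nuclei, 1211 (94.3%) had a count in at least 1 of the 62 peaks, with a median of 4 peaks a nucleus, against 13.1% of the other DOX nuclei at a like median depth. No nucleus gave more than 0.313% of the counts. Cluster 2 supplied 56.8% and cluster 3 supplied 38.8%. Over 5 lymphoid markers the median log2 folds of these clusters against the other nuclei were -0.72 and -0.38, with 2 and 1 markers higher. In the 10 shared regions of the window the level in immune-like nuclei was 78.9 CPM in DOX (interval 76.2 to 81.6) and 84.8 in EtOH (interval 78.2 to 91.9), and outside them it was 2.64 and 2.93. The intervals overlapped in both cases. Of DOX peaks nearest to the kappa segments 6 of 18 were DOX-only, and of those nearest to T cell receptor segments 16 of 111 (14.4%).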

How the data were processed

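scATAC-seq was run on organoids of the DOX and EtOH groups, with 1 library a group. The authors deposited raw counts of Tn5 cuts for every peak in every nucleus, with peaks and cells called in each library alone by Cell Ranger ATAC (2.0.0 per the file headers, while the study's methods name another version) on build mm10. The deposited counts were mostly even, with 13.8% and 14.3% odd values, so the intervals of levels in CPM used counts divided by 2. Intervals cover counting error only. The number of peaks or nuclei set the width of those of shares, and the counts that of levels in CPM.

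Peaks overlapping by 1 bp or more were joined into shared regions. Nuclei of both libraries were clustered on these by TF-IDF, latent semantic components 2 to 30, 15 neighbours and Leiden at resolution 0.5 (leidenalg 0.10.2, scikit-learn 1.9.0). Gene accessibility summed counts over the gene and 2000 bp upstream. A cluster was named where a marker list had a median log2 fold of at least 0.5 and led the next list by 0.25. Doublets were not removed, and leaving out nuclei above the 95th percentile of counts was tried instead. The 5763 DOX peaks on other chromosomes were left out.

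Positions and starts came from GENCODE M21, sequence and soft-masking from GRCm38. With 1 library a group no test was made. The scripts were tested on simulated data. Peaks, lists, marker sets and rules for named regions were chosen with earlier results of these data known. Named regions were the 10 with the most counts, the 5 with the most among immune-supplied peaks and among those supplied from outside, and the 3 with the highest share from each other cluster of at least 50 nuclei, among peaks of at least 300 counts. Some of these regions and marker values are not reported here. Named genes were the 10 with the most DOX-only peaks, the 10 with the highest share among genes with at least 20 DOX peaks, and list genes with at least 5. Other named list genes, the heavy chain window and the printed sequences were chosen after their values were seen. Other minimum counts, overlap rules, windows, clusterings and depths were tried.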

Additional observations from a re-analysis of the deposited data

How the results depend on the processing

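No paired analysis was possible because DOX and EtOH are single libraries. With a minimum of 200 counts the DOX-only peaks numbered 20242, 14.1% lay within 1 kb of a TSS, the median GC content was 46.7%, the GATA difference between DOX-only and counterpart peaks supplied from outside was 21.0 points, immune-like nuclei supplied 74.4% of the counts, and the macrophage list stood at 23.1%, against 12.7% of all DOX peaks at that minimum. With a minimum of 50 counts the TSS share, GATA difference and immune share were 10.9%, 15.4 points and 69.2%, and with no minimum 10.8%, 15.2 points and 69.1%. When an EtOH peak within 1000 bp also removed a peak, the TSS share was 9.64%, the GC content 45.7%, the GATA difference 18.3 points and the immune share 69.6%. The TSS share was 18.9% with a 2 kb window and 7.33% for protein-coding starts alone. Over whole peaks the GC content was 44.8% and the GATA difference 15.4 points, and within bands of GC content or of counts that difference was 14.2 and 15.8 points. The immune share was 69.7% where only an overlap of 50% or more removed a peak, 69.7% with the DOX library clustered alone, 70.3% without nuclei below 10000 counts, 72.2% with nuclei thinned to 10000 counts and 74.7% without nuclei above the 95th percentile. The median log2 ratio of the nearest shared region, 0.02, was 0.15 when scaled to the median shared region and turned to -0.057 in nuclei outside the immune-like clusters. The PU.1 difference among immune-supplied peaks, -2.95 points, turned to 0.52 within bands of counts. The cause of these shifts was not tested. The bands of counts and the 95th percentile were chosen after seeing the data.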

Other observations

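On chromosome X, outside the rule, 1059 of 5112 DOX peaks with at least 100 counts (20.7%) overlapped no EtOH peak, and 68.8% of their counts came from immune-like nuclei. The EtOH list had 21.9% there.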
